A study of Mus musculus with 8 samples.

Results

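The RUNX and C/EBP factors are transcription factors of blood, bone and inflammatory cells, and their 9 genes (Runx1, Runx2, Runx3, Cbfb, Cebpa, Cebpb, Cebpd, Cebpe and Cebpg) were followed here among the 21911 protein-coding genes of the mouse annotation. Open chromatin was measured by ATAC-seq, in which the Tn5 transposase cuts the DNA that it can reach in isolated nuclei, in the cerebral cortex of 4 BCAS and 4 sham mice, with 1 library per mouse. BCAS, bilateral common carotid artery stenosis, is a model of chronic cerebral hypoperfusion, in which a microcoil of 0.16 mm was placed on the right and one of 0.18 mm on the left common carotid artery. Sham mice had the arteries exposed without a coil. All mice were male C57BL/6 mice of 14 weeks with no altered gene, and tissue was taken 3 weeks after surgery. The sample labels give the right cortex, whereas the study's quality table names whole-brain cortex with cerebellum and olfactory bulb removed, so the side is uncertain.

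The locus of a gene was its body with 3 kb on each side in the GENCODE vM21 annotation of mm10 (GRCm38), and every peak of the 8 lists that overlapped it was used. The 9 loci held 46 to 68 peaks in a BCAS library and 40 to 54 in a sham library. Peaks that overlapped between libraries were joined into regions, 86 at these loci of 197916 in the genome, which are numbered from the first transcription start of each gene.

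RUNX proteins bind DNA through the runt domain and gain affinity from CBFB, a partner that does not touch DNA itself. Runx1 is required for blood formation and is expressed in microglia, Runx2 is the master regulator of bone formation, and Runx3 acts in lymphocytes and sensory neurons. Each RUNX gene has a distal promoter, called P1, and a proximal one, called P2. C/EBP proteins are leucine zipper factors that bind as dimers. Cebpa drives myeloid and liver differentiation, Cebpb and Cebpd act in inflammation and the acute phase response, Cebpe in the maturation of granulocytes, and Cebpg encodes a short dimer partner without an activation domain.

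In 5 of the 86 regions of the 9 loci (5.81%) every BCAS library and no sham library had a peak, against 1.62% of all regions. No region showed the reverse, which was rare in the whole genome (0.0945% of all regions). The 5 regions, called BCAS-only, carry the presence result. The 201 bp around their strongest summit are therefore shown, in the + strand of GRCm38 from RefSeq. Capitals mark matches, on either strand, to 4 short motifs. The motif of RUNX proteins was TGTGGT, and that of C/EBP proteins was TTGCNNAA. For ETS factors, to which PU.1 and FLI1 belong, the letters GAGGAAG were searched. For AP-1, formed by FOS with JUN proteins, the letters TGANTCA were searched, and neither of these 2 motifs had a match in the windows shown.
Runx1 region 4, chr16:92801697-92801897: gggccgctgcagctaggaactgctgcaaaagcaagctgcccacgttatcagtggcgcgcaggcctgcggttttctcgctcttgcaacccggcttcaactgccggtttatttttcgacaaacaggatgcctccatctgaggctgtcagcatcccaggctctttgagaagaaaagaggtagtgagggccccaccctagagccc
Runx1 region 13, chr16:92713915-92714115: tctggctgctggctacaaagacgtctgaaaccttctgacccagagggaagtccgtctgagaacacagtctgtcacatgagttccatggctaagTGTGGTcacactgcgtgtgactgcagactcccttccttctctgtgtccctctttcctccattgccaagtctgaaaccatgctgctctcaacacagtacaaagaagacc
Runx1 region 25, chr16:92639145-92639345: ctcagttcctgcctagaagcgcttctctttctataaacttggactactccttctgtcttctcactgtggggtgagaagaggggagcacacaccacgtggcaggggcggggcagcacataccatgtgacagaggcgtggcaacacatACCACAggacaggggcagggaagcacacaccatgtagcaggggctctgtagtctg
Runx1 region 28, chr16:92612595-92612795: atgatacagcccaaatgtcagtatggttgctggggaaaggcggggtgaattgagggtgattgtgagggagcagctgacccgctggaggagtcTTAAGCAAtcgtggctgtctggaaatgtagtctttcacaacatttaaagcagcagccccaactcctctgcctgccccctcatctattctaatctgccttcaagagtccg
Runx2 region 15, chr17:44663952-44664152: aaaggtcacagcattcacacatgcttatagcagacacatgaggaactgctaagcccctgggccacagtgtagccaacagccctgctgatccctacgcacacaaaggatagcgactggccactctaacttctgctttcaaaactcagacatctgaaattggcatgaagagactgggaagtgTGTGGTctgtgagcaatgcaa
Runx1 regions 13 and 25 and Runx2 region 15 held a RUNX match, Runx1 region 28 held a C/EBP match, and Runx1 region 4 held none of the 4 motifs. A RUNX match was present in 14.3% of the 201 bp windows of all regions, in 22.6% of the windows of all 3206 BCAS-only regions and in 15 of the 86 windows (17.4%) at the 9 loci. For C/EBP the shares were 9.76%, 14.9% and 8 of 86 (9.30%). For ETS they were 10.7%, 31.8% and 14 of 86 (16.3%), and for AP-1 15.02%, 11.1% and 18 of 86 (20.9%). A match is a stretch of letters and not a measured binding site.

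Promoters of the RUNX genes are shown because Runx1 was the gene with a difference at its promoters, while the distal promoters of Runx2 and Runx3 had no peak. The sequences run 5′ to 3′ along the gene, from 250 bp before to 50 bp after the transcription start of RefSeq (GRCm38.p6), and capitals mark the same motifs.
Runx1 P1, chr16:92826025-92826324: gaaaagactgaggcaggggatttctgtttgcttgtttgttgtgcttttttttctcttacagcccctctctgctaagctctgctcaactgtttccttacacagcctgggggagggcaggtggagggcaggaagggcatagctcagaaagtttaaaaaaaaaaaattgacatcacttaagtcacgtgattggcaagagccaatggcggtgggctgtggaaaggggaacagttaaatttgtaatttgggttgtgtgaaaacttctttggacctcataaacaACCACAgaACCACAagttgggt
Runx1 P2, chr16:92697280-92697579: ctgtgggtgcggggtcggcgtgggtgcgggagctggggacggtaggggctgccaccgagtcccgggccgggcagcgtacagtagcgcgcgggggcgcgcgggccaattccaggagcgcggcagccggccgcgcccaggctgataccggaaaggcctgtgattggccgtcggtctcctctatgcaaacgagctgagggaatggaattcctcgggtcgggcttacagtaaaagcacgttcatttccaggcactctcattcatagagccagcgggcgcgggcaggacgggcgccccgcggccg
Runx2 distal promoter, chr17:44814578-44814877: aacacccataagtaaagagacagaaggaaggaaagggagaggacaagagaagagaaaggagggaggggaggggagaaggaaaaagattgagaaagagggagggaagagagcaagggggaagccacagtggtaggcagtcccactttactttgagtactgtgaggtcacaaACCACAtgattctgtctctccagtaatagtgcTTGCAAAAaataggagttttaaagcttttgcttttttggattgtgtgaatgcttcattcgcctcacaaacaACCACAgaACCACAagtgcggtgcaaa
Runx3 distal promoter, chr4:135120395-135120694: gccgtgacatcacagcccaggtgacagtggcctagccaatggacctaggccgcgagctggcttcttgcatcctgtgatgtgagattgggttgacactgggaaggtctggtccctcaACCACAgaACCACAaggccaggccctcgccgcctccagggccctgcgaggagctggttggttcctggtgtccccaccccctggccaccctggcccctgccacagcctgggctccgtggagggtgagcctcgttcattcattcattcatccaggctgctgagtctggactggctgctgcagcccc
The 3 distal promoters shared the run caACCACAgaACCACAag of 18 bp, with a pair of RUNX matches. It began 26 bp after the start in Runx1, 21 bp after it in Runx2 and at -136 bp in Runx3. It was found in 4 of 32851 RefSeq promoters of this length, those of the RUNX genes and that of Gm16225, which overlaps Runx3. A pair of RUNX matches or more was present in 1.81% of these promoters, and at least 1 match in 16.8%, while 10.8% held a C/EBP, 13.6% an ETS and 7.81% an AP-1 match. The distal promoter of Runx2 held 3 RUNX matches and 1 C/EBP match. Of the 9 genes, 7 had a sequence in the RefSeq table (9 promoters).

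One of the 9 loci passed the test between the groups. Runx1 had a larger covered length in BCAS, and none of the 9 had a smaller one. The covered length is the number of bp of a locus that lie in peaks, scaled to the total length covered by the library's peaks on 21 chromosomes. It was compared by limma on log2(bp + 200), with Benjamini-Hochberg adjustment over 17012 protein-coding loci, so fold changes of short lengths are understated. Of all loci, 3.15% were called higher and 0.376% lower in BCAS. At an unadjusted limma p under 0.05, 4 of the 9 loci were past the line, with Runx1, Runx3 and Cebpd higher and Runx2 lower in BCAS, while of all loci 10.6% were higher and 4.4% lower at this threshold. The log2 fold change was above 0 in 5 of the 9 genes, with a median of 0.11, against a median of 0.0014 over all loci. In bulk cortex, more cells of a type and more open chromatin per cell cannot be told apart.

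**Figure D1:**
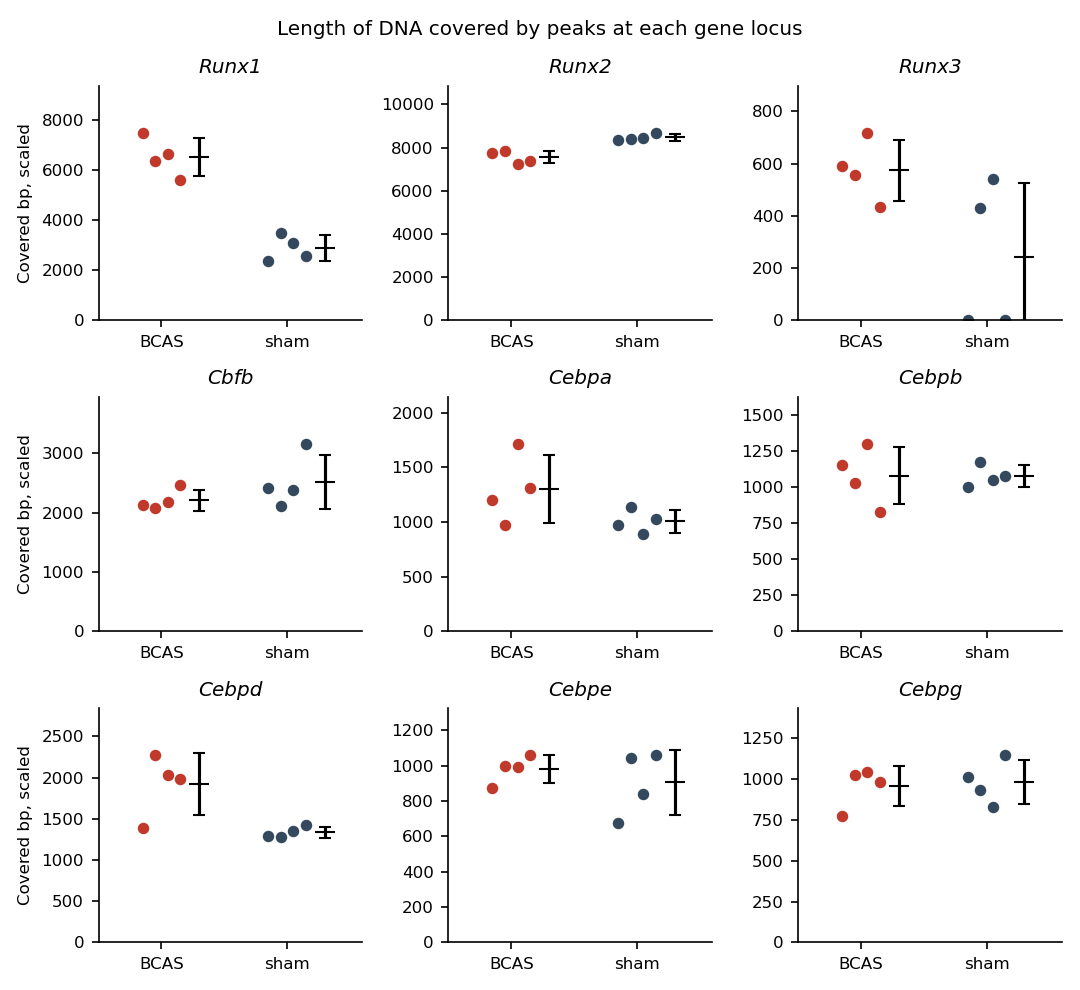
Covered length in scaled bp (y axis, from 0, own scale for each gene) at the loci of the 9 genes, with 1 point per library, 4 BCAS in red on the left and 4 sham in blue on the right, and black bars for mean ± SD. Runx1 was between 5608 and 7487 bp in BCAS and between 2383 and 3497 bp in sham libraries, and the ranges of Runx2 were separate in the opposite direction.

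Runx1 lies on the minus strand of chromosome 16 (chr16:92601466-92826149, 224.7 kb). Its peaks covered 9386, 6240, 6374 and 5191 bp in BCAS 1 to 4 and 2021, 3633, 3558 and 2179 bp in sham 1 to 4, before scaling. The lowest BCAS library was above the highest sham library, also after scaling (6524 ± 776 bp in BCAS and 2890 ± 503 bp in sham, SD, n = 4 each), and BCAS 1, which had the longest peak list, was the highest. The covered length was 2.26 times that of sham as a ratio of means, and the log2 fold change was 1.13 (SE 0.12, 95% interval 0.88 to 1.38, limma adjusted p = 0.000166), rank 2 of the 17012 loci by p. Non-overlapping groups with BCAS above were seen in 6.03% of all loci. Peaks covered 2.95% ± 0.78 of the Runx1 locus in BCAS and 1.23% ± 0.38 in sham libraries.

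The difference lay in the number of peaks as well as in their length. Runx1 had 27, 18, 21 and 15 peaks in BCAS 1 to 4 and 8, 12, 12 and 8 peaks in sham 1 to 4. Per 100000 peaks of the library these were 15.1 ± 2.18 in BCAS and 7.97 ± 0.86 in sham (SD, n = 4 each), with no overlap (exact two-sided permutation test, p = 0.0286, the smallest that 70 labelings can give). At the level of single bases, 1318 bp of Runx1 lay in a peak in every BCAS and in no sham library, 0 bp in every sham and no BCAS library, and 501 bp in all 8.

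The libraries also differed in the GC content of their reads, in which the study's quality table separates sham 1, 2, 3 and BCAS 1 (higher) from sham 4 and BCAS 2, 3, 4 (lower). Within the higher class the log2 difference of Runx1 was 1.28 (BCAS 1 against 3 sham libraries) and within the lower class 1.20 (3 BCAS libraries against sham 4). With 1 library on a side, these carry no test. With the class as a covariate the log2 fold change was 1.24 (limma adjusted p = 0.00349).

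**Figure D2:**
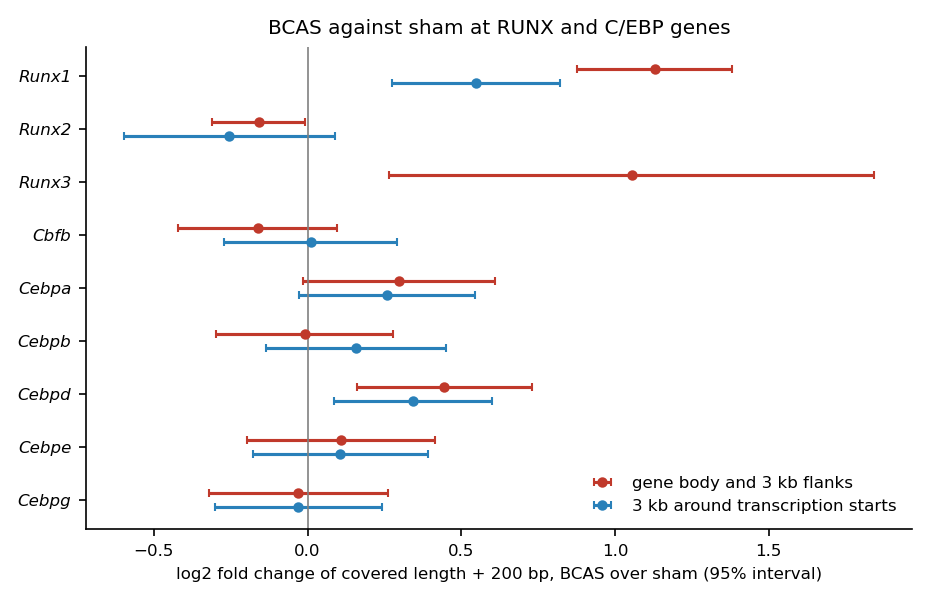
Log2 fold change of covered length + 200 bp, BCAS over sham (x axis, bars for the 95% interval), for the 9 genes, with the whole locus in red and the DNA within 3 kb of transcription starts in blue. The interval of Runx1 lay above 0 for both measures, and Runx3 has no value for promoters because its windows were below the minimum length.

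The 31 regions of Runx1 were spread over the whole gene. Peaks were found in more BCAS than sham libraries in 22 regions and in more sham than BCAS libraries in 4, with 5 equal. Of all regions of the genome, 30.4% had peaks in more BCAS and 23.2% in more sham libraries. In 15 regions of Runx1 peaks occurred in BCAS libraries alone, as in 16.8% of all regions, and in 1 in a sham library alone, as in 10.3%. Of the Runx1 regions 3 were called in all 8 libraries, as were 36.2% of all regions. The BCAS-only regions made up 4 of the 31 (12.9%), against 1.62% of all regions of the genome and 1.59% of those in protein-coding loci.

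All 4 BCAS-only regions of Runx1 were intronic in the longest transcript. Region 4 (chr16:92801577-92802009) lay 24.36 kb after the distal start in intron 2, with a covered length of 414, 397, 395 and 397 bp in BCAS 1 to 4. Region 13 (chr16:92713834-92714158), 112.15 kb after that start in the same intron, covered 310, 325, 286 and 268 bp. Both lie between the distal and the proximal promoter, the part of mouse Runx1 in which a blood cell enhancer is known, and whether either region is that enhancer was not tested. Region 25 (chr16:92639086-92639421, intron 6) covered 305, 315, 230 and 248 bp, and region 28 (chr16:92612518-92612890, intron 7) covered 373, 290, 339 and 332 bp. Region 28 lies within 1 kb of the start of Gm26626, a non-coding gene that overlaps Runx1, and ATAC-seq has no strand that could tell these genes apart.

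These were peaks of middle rank. When the peaks of a library were ordered by the authors' q-value, from 0% for the lowest q to 100%, region 4 ranked at 46.9%, 33.0%, 27.5% and 27.8% in BCAS 1 to 4. The best rank of the other 3 in any library was 19.0% (region 28), 33.5% (region 13) and 38.1% (region 25). A missing peak means that none was called in that library, since the lists hold no reads below the threshold. Next to region 4, region 5 was called in all 4 BCAS libraries (339 to 416 bp) and in 2 sham libraries (259 bp in sham 3 and 200 bp in sham 4).

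**Figure D3:**
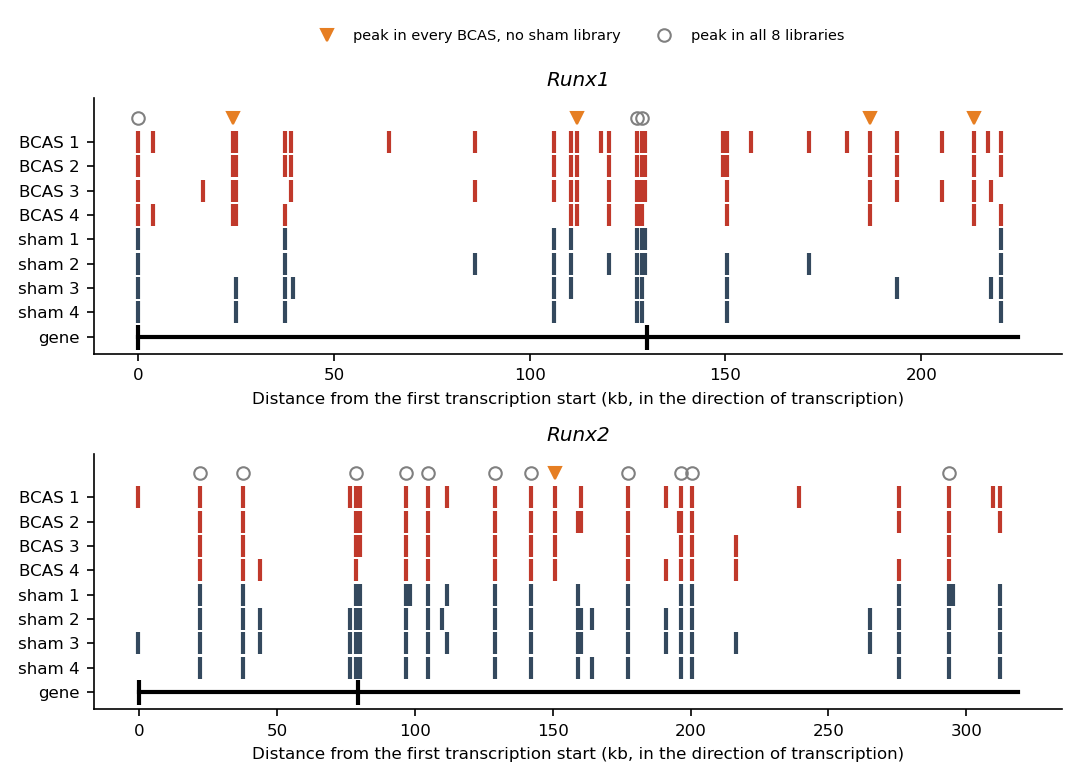
Regions with a peak in each library (rows, BCAS in red above sham in blue) by the distance of the region's midpoint from the first transcription start in kb (x axis), for Runx1 above and Runx2 below. Black ticks on the gene line mark the first and last annotated start. Runx1 had 4 BCAS-only regions (triangles) and 3 regions called in all 8 libraries (circles), and Runx2 had 1 and 11.

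Both promoters of Runx1 had a peak in all 8 libraries, and both peaks were longer in BCAS. At the distal promoter (region 1, UTR) the covered length was 558, 527, 447 and 471 bp in BCAS 1 to 4 and 234, 301, 336 and 280 bp in sham 1 to 4. At the proximal promoter (region 18, UTR) it was 409, 347, 395 and 540 bp in BCAS and 263, 240, 361 and 268 bp in sham libraries. The groups did not overlap at the distal promoter, whereas at the proximal one BCAS 2 lay below sham 3. Peak edges were counted from the start in GENCODE (chr16:92826149 for the distal promoter). This start lies upstream of the RefSeq start of the sequence shown, so the edges cannot be read against that sequence. The peak of the distal promoter began at -149 to -281 bp from the GENCODE start in BCAS libraries. It reached 262 to 321 bp beyond this start and so spanned it. In sham 2 it ran from -165 to 135 bp, also across the start. In sham 3 it ran from -316 to 19 bp and in sham 4 from -276 to 3 bp, and in sham 1 it began 1 bp after the start and ended at 234 bp. The upstream edges of the groups thus overlapped, while the downstream edge was further from the start in every BCAS library than in every sham library.

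The DNA within 3 kb of any transcription start gave the same direction for Runx1. The scaled length was 1620 ± 279 bp in BCAS and 1039 ± 125 bp in sham libraries (SD, n = 4 each), with a log2 fold change of 0.55 (SE 0.13, limma adjusted p = 0.0376). Of 15280 promoter windows 1.4% were called higher and 0.0393% lower. The call was kept without BCAS 2 (0.60, adjusted p = 0.0452) and without sham 1 (0.61, adjusted p = 0.0224) and was lost in the other 6 of the 8 fits that left out 1 library, with a log2 fold change of 0.45 without BCAS 3 (adjusted p = 0.20) and of 0.49 without sham 3 (adjusted p = 0.107). It was also lost without BCAS 1 (0.60, adjusted p = 0.0692), BCAS 4 (0.54, adjusted p = 0.101), sham 2 (0.55, adjusted p = 0.0613) and sham 4 (0.54, adjusted p = 0.0542).

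The ranks of regions called in all 8 libraries were also compared, a step added after the data had been seen. Of the 22 regions of the 9 loci that were called in all 8 libraries, 3 ranked better in every BCAS than in every sham library, and none ranked worse. Among all 71712 such regions these shares were 5.86% and 2.18%. The 3 regions were the proximal promoter of Runx1 (15.8% to 33.0% in BCAS and 36.3% to 76.3% in sham libraries), the promoter of Cebpd (4.86% to 6.98% and 9.24% to 28.4%) and intronic region 10 of Runx2 (26.7% to 44.0% and 47.9% to 90.9%). By the absolute rank in the list, which does not depend on its length, the first 2 of these still did not overlap. At the distal promoter of Runx1 the ranks overlapped, because BCAS 3 was at 73.4%.

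**Figure D4:**
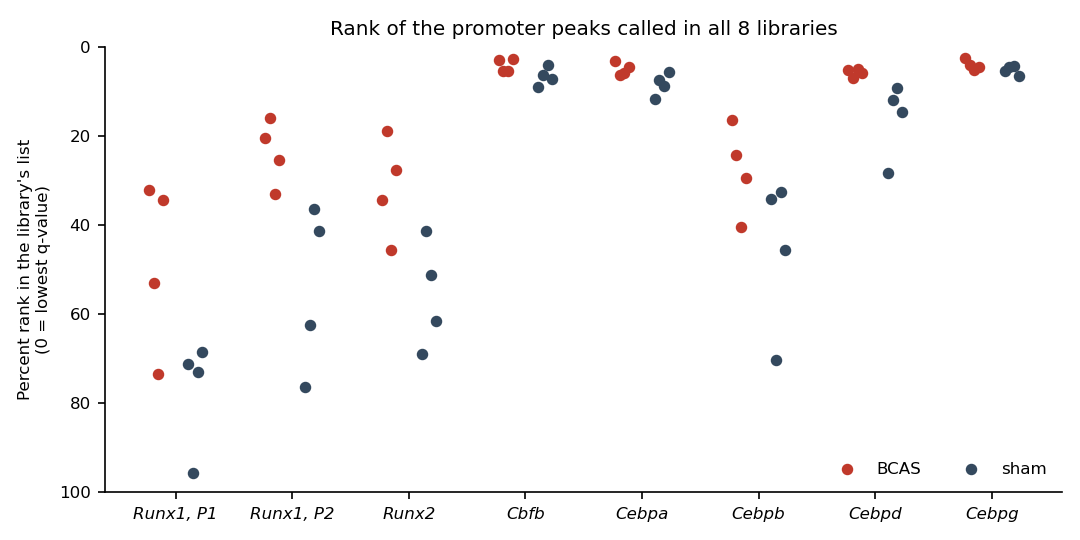
Percent rank of each promoter peak in its library's list (y axis, 0 at the top for the lowest q-value), with BCAS libraries in red on the left and sham libraries in blue on the right, for the 8 promoter regions called in all 8 libraries. At the proximal promoter of Runx1 and at Cebpd every BCAS library ranked better than every sham library.

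Runx3 (chr4:135120652-135177990, 57.3 kb) was called little, and in 2 sham libraries not at all. Its peaks covered 739, 544, 689 and 402 bp in BCAS 1 to 4 and 0, 446, 623 and 0 bp in sham 1 to 4. The groups overlapped, since sham 2 and 3 lay within the BCAS range. The log2 fold change was 1.05 (SE 0.37, 95% interval 0.26 to 1.84), which did not pass the test (limma adjusted p = 0.149). With 2 libraries at 0 bp its size depended on the pseudocount, at 1.92 with 50 bp (adjusted p = 0.198) and 0.37 with 1000 bp (adjusted p = 0.122). Its values rested largely on region 2, in intron 1 at 8.35 kb from the distal start, which covered 332, 344, 360 and 402 bp in BCAS and 0, 208, 349 and 0 bp in sham libraries. Both Runx3 promoters in RefSeq had 0 bp in all 8 libraries.

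Runx2 (chr17:44495987-44814797, 318.8 kb) had as many regions as Runx1 but another pattern. Its peaks covered 9716, 7707, 6963 and 6846 bp in BCAS and 7076, 8743, 9701 and 7312 bp in sham libraries, and these values overlapped. After scaling to the library they were 7248 to 7861 bp in BCAS and 8345 to 8679 bp in sham libraries, which do not overlap. Groups with BCAS below were seen in 2.47% of all loci. The log2 fold change was -0.16 (SE 0.07, 95% interval -0.31 to -0.01, limma adjusted p = 0.296), so Runx2 was not called. Its peaks per 100000 were 13.5 ± 0.46 in BCAS and 16.3 ± 0.75 in sham libraries, again without overlap (exact two-sided permutation test, p = 0.0286). The p-value was above 0.05 with a threshold of 5 on −log10 q or with lists of equal length (exact two-sided permutation test, p = 0.371 for both). Without BCAS 3 it was 0.0571 by the same exact test, while the groups still did not overlap.

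Of the 31 regions of Runx2, 11 were called in all 8 libraries, 5 in more BCAS and 12 in more sham libraries. Of all regions of the genome, 36.2% were called in all 8, 30.4% in more BCAS and 23.2% in more sham libraries. The number of Runx2 regions called in all 8 was thus near the genome share. No region was called in every sham and no BCAS library, as in 0.0945% of all regions, and region 16, at 159.23 kb in an intron, came closest, with a peak in all 4 sham libraries (220 to 374 bp) and in BCAS 2 (215 bp). Region 15 was BCAS-only (chr17:44663880-44664282, 150.72 kb from the distal start, intron), with 403, 342, 243 and 309 bp in BCAS 1 to 4. The distal promoter of Runx2 was at 0 bp in all libraries, and the nearest peak, region 1, was called in BCAS 1 (280 bp) and sham 3 (313 bp) alone. Runx2 overlaps Supt3, and the Runx2 region of the best ranks, region 3 (1013 to 1073 bp in BCAS and 981 to 1038 bp in sham libraries), lies within 1 kb of a start of Supt3.

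The common partner of the RUNX proteins showed no call. Cbfb (chr8:105170674-105217989) was covered over 2659, 2030, 2090 and 2274 bp in BCAS 1 to 4 and 2046, 2192, 2738 and 2658 bp in sham 1 to 4, and the ranges overlapped. The log2 fold change was -0.16 (95% interval -0.42 to 0.10, limma adjusted p = 0.626). Its promoter peak was called in all 8 libraries and was of high rank, at 2.67% to 5.41% in BCAS and 4.07% to 9.03% in sham libraries.

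Among the C/EBP genes Cebpd (chr16:15887286-15891031) came nearest to the threshold. Its peaks covered 1743, 2232, 1957 and 1835 bp in BCAS 1 to 4 and 1096, 1335, 1554 and 1204 bp in sham 1 to 4. Every BCAS library was above every sham library, but after scaling BCAS 1 (1390 bp) lay below sham 4 (1429 bp). The log2 fold change was 0.44 (SE 0.13, 95% interval 0.16 to 0.73, limma adjusted p = 0.0839), and without BCAS 1 it was 0.57 and passed (adjusted p = 0.0193). Within the higher GC class, where BCAS 1 stands against 3 sham libraries, the log2 difference was 0.08, and within the lower class it was 0.49. With the class as a covariate it was 0.29 (adjusted p = 0.354).

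The Cebpd promoter peak reached further upstream in BCAS. Counted from the transcription start it began at -378, -677, -684 and -674 bp in BCAS 1 to 4 and at -350, -255, -369 and -326 bp in sham 1 to 4. Its other edge lay 853 to 945 bp after the start in BCAS and 677 to 983 bp after it in sham libraries. BCAS 1 was thus near the sham libraries and the other 3 were apart. The length of this peak was 1302, 1561, 1538 and 1620 bp in BCAS and 1096, 1131, 1353 and 1004 bp in sham libraries, which overlap by BCAS 1 and sham 3. Further peaks lay in the 3′ part of the gene model, in its UTR, where region 4 was called in BCAS 2 and 3 alone.

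**Figure D5:**
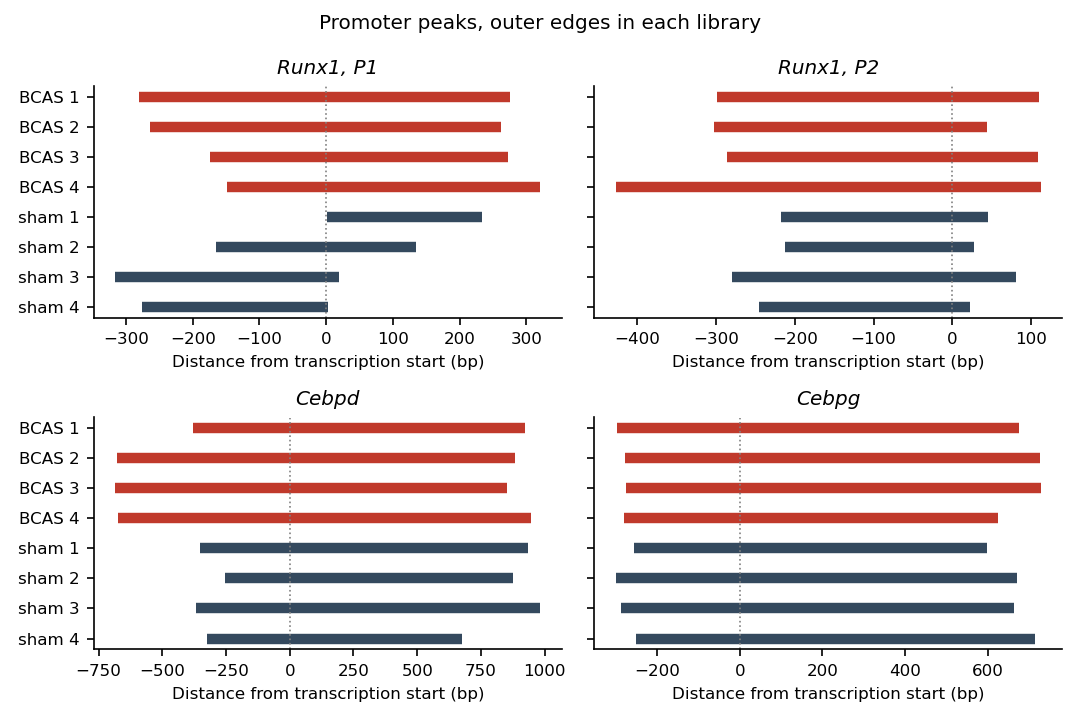
Outer edges of the promoter peaks in each library (rows, BCAS in red above sham in blue), for both Runx1 promoters, Cebpd and Cebpg. The x axis is the distance in bp from the transcription start in GENCODE. Where a library had 2 peaks in a region the bar runs over the gap. The Cebpd peak began at -674 to -684 bp in BCAS 2 to 4, and the Cebpg peak had much the same edges in all libraries.

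The other C/EBP genes were not called, and Cebpa, Cebpb and Cebpg had a peak over their start in all 8 libraries. Cebpa (chr7:35119293-35121928) covered 1507, 956, 1646 and 1215 bp in BCAS 1 to 4 and 822, 1179, 1023 and 868 bp in sham 1 to 4, with overlap and a log2 fold change of 0.30 (95% interval -0.01 to 0.61, limma adjusted p = 0.363). With flanks of 10 kb in place of 3 kb Cebpa was called, at 0.70 (adjusted p = 0.0128). Downstream of it, 5.67 kb from the start, region 2 was called in BCAS 1 (259 bp) and BCAS 3 (245 bp) and in no sham library.

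Cebpb (chr2:167688915-167690418) covered 1447, 1008, 1246 and 767 bp in BCAS 1 to 4 and 847, 1220, 1207 and 907 bp in sham 1 to 4. The groups overlapped, and the log2 fold change was -0.01 (95% interval -0.30 to 0.28, limma adjusted p = 0.988). Its promoter peak was of lower rank than those of Cebpa and Cebpd, at 16.4% to 40.4% in BCAS and 32.6% to 70.2% in sham libraries. Cebpe (chr14:54710360-54712174) had no peak over its own start. Its 3 regions lay upstream of it, at -2.85 to -0.87 kb, and covered 1093, 976, 953 and 982 bp in BCAS 1 to 4 and 572, 1086, 968 and 894 bp in sham 1 to 4, where sham 1 was lowest (log2 fold change 0.11, 95% interval -0.20 to 0.41, adjusted p = 0.848). Cebpg (chr7:35046422-35056573) had 1 peak in every library, of 906 to 1003 bp in BCAS and 857 to 971 bp in sham libraries (log2 fold change -0.03, 95% interval -0.32 to 0.26, adjusted p = 0.963). The loci of Cebpb, Cebpd and Cebpg overlap the neighbouring genes Tmem189, Spidr and Pepd, and a peak in the shared DNA cannot be assigned to either gene.

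Genes that act with or downstream of these factors were compared in 3 lists. The lists were chosen with earlier results of these data known, so a share above that of all loci carries no test. Of 22 dimer partners, co-repressors and co-activators, all tested, none passed the limma test (4 were higher and 1 lower at an unadjusted p under 0.05, against 10.6% and 4.4% of all loci), with a median log2 fold change of 0.01. Of 18 other transcription factors of blood and myeloid cells, 16 were tested and 3 rose: Ikzf1, Fli1 and Irf8. Of all loci 3.15% were called higher. At an unadjusted limma p under 0.05, 6 of the 16 were higher and 0 lower. The median of the list was 0.10. Gata1 and Gfi1, factors of red cells and granulocytes, were at 0 bp in every library.

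Fli1, an ETS factor of blood and endothelial cells, covered 5687 ± 251 bp in BCAS and 3488 ± 602 bp in sham libraries (log2 fold change 0.69, SE 0.11, limma adjusted p = 0.00236). Irf8, required for microglia and monocytes, had 1775 ± 134 bp in BCAS and 1133 ± 238 bp in sham libraries (0.58, SE 0.13, adjusted p = 0.0202). Ikzf1, the lymphoid factor Ikaros, had 3035 ± 506 bp in BCAS and 1759 ± 701 bp in sham libraries, with overlap (0.78, SE 0.19, adjusted p = 0.0281). All values are mean ± SD of scaled bp with n = 4 each. Spi1, whose product PU.1 acts with RUNX1 and C/EBP proteins at many myeloid genes, did not pass the test (log2 fold change 0.09, adjusted p = 0.831), and is named outside the rule after its values were seen.

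Of 24 textbook target genes of RUNX or C/EBP proteins in myeloid cells, 19 were tested, 5 rose and none fell, with a median log2 fold change of 0.34. Of all loci 3.15% were called higher and 0.376% lower. At an unadjusted limma p under 0.05, 8 of the 19 were higher and 0 lower, against 10.6% and 4.4% of all loci. Because the list was chosen with earlier results of these data known, these counts are no independent evidence of a shift. Itgam, the integrin CD11b, covered 1092 ± 394 bp in BCAS and 54.8 ± 110 bp in sham libraries (log2 fold change 2.36, SE 0.30, limma adjusted p = 0.000413). Lyz2, lysozyme, covered 936 ± 106 bp in BCAS and 179 ± 120 bp in sham libraries (1.65, SE 0.25, adjusted p = 0.00137). The cytokine genes Ccl3 (698 ± 56.7 bp in BCAS) and Tnf (514 ± 88.1 bp in BCAS) are listed at 0 bp in all 4 sham libraries, so no fold is given, and they entered the median by their rank above it (adjusted p = 0.000231 and 0.00181). Cd14, named outside the rule, was the fifth (0.95, adjusted p = 0.0408). Genes of granulocyte granules, namely Ltf, Camp and Ngp, and the cytokine gene Csf2 were at 0 bp in all libraries.

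Marker lists of cell types moved with Runx1 in part. The summed covered length of 12 microglial markers was 24.83 to 27.55 kb in BCAS and 20.04 to 24.35 kb in sham libraries, without overlap. Such a separation was seen in 6.03% of single loci, and its share among sums of several genes was not determined. All 12 microglial markers were tested, 2 rose (Gpr34, 1.44, and Trem2, 0.68, on the log2 scale), and the median was 0.30. Of all loci 3.15% were called higher. At an unadjusted limma p under 0.05, 6 of the 12 were higher and 0 lower, against 10.6% and 4.4% of all loci. The sums of 6 endothelial markers (13.34 to 15.91 kb in BCAS and 9.71 to 12.03 kb in sham libraries, none called, 3 higher at an unadjusted limma p under 0.05) and of 9 lymphocyte markers (2.57 to 2.77 kb in BCAS and 0.97 to 2.08 kb in sham libraries, none of 2 tested called, both higher at an unadjusted p under 0.05) were also separate. The lymphocyte markers Cd8a, Ms4a1, Ncr1 and Nkg7 were at 0 bp in every library. The part of these cell types in the difference at Runx1 was not tested.

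The other lists overlapped between the groups. Of 10 neutrophil markers 3 were tested and none called (0 at an unadjusted p under 0.05), and S100a9, Ly6g, Camp, Ngp and Retnlg were at 0 bp in every library. Of 10 markers of border macrophages and monocytes 5 were tested and Cd14 alone was called, while 3.15% of all loci were called higher. The log2 fold change was above 0 in 3 of these 5, with a median of 0.02. Ms4a7 and Ly6c2 were at 0 bp. Of 6 mast cell markers 3 were tested and Hdc alone was called (0.65), while Cpa3 (-0.14) and Kit (-0.05) were below 0. Mcpt4 and Ms4a2 were at 0 bp. Of 5 markers of bone-forming cells 4 were tested and none called (1 higher and 1 lower at an unadjusted p under 0.05), with Ibsp at 0 bp. Markers of cell types of the labelled tissue were covered in both groups, but such sums do not identify a tissue. The bone-forming markers summed to 5.61 to 6.70 kb in BCAS and 5.69 to 6.84 kb in sham libraries. Sst, of inhibitory neurons, and Lum, of mural cells and fibroblasts, were at 0 bp in every library. The sums of 6 markers each were 14.5 to 16.6 kb in BCAS and 15.9 to 17.7 kb in sham libraries for excitatory neurons, 3.49 to 5.38 and 4.25 to 5.35 kb for inhibitory neurons, 15.2 to 17.9 and 14.3 to 15.9 kb for astrocytes, and 15.6 to 17.3 and 14.8 to 19.4 kb for oligodendrocytes. Those of mural cells and fibroblasts were 3.70 to 5.52 kb in BCAS and 4.56 to 5.25 kb in sham libraries. None of these markers was called by limma, and at an unadjusted p under 0.05 only 1, of inhibitory neurons, was lower.

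The loci most like Runx1 over the 8 libraries, by the correlation of log2 covered lengths, were Tuba1c, a tubulin (Pearson r 0.99, log2 fold change 0.95), D16Ertd472e (r 0.99, log2 fold change 0.55) and Bik, which encodes a protein that promotes apoptosis (r 0.99, log2 fold change 1.07). These values describe 8 libraries that share the same 2 groups and carry no test.

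The lists themselves held 119660 to 160848 peaks in BCAS libraries (median 125760) and 107482 to 145102 in sham libraries (median 122600), which overlap (exact two-sided permutation test, p = 0.543). They covered 48.9 to 66.3 Mb in BCAS and 44.5 to 60.8 Mb in sham libraries. BCAS 1 had the most peaks and sham 1 the fewest. Read counts are not part of the lists, and how deeply each peak was sequenced is therefore unknown. The limma p-values rest on the spread among 4 mice per group together with a variance trend fitted over all tested loci. The exact permutation p-values count labelings of the libraries and measure no spread.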

How the data were processed

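ATAC-seq peak lists of 4 BCAS and 4 sham mice were used. Per the study's methods and the processing notes, FastQC and Trim Galore were used for the quality and trimming of reads, Bowtie2 2.3.4.3 for alignment to mm10, and SAMtools 1.9 and MACS2 for duplicate removal and peak calls per library. The MACS2 settings and any Tn5 shift were not given in the sources consulted. The deposited lists give an integer score, the fold enrichment (a ratio), −log10 p, −log10 q and the summit of each peak, all made by the authors within a library. Of these −log10 q was used to order peaks within a list and for the stricter threshold of 5. Fold enrichment was used only to order peaks of equal q for the lists of equal length, and the summit to place windows.

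The members and gene lists were chosen with earlier results of these data known. Peaks on 21 chromosomes were read with Python 3.11.15, numpy 2.4.6 and pandas 2.3.3, and joined into regions at an overlap of at least 1 bp. Covered bp of a locus (gene body and 3 kb) were scaled by the total length covered by the library's peaks on these chromosomes. Loci averaging 200 bp or more were tested two-sided in R 4.3.3 with limma 3.58.1 (variance trend, pseudocount 200 bp, adjusted p under 0.05). The procedure was tested on simulated data. Of duplicate symbols the longest gene was kept. Peak numbers were compared with exact permutation tests. Figures were drawn with matplotlib 3.10.9.

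Named genes were the 9 members, up to 4 called genes of each of the 3 lists by absolute fold change, and the 3 loci most correlated with a called member, leaving out predicted genes. Alternatives were a −log10 q of 5, equal list lengths, leaving out each library, no minimum length, pseudocounts of 50 and 1000 bp, other scalings, other flanks and windows, peak numbers, peak number or read GC class as a covariate, other rules for regions, and a replicate block. The comparison of percent ranks was added once the data were known. Of the lymphocyte markers, 1 is not reported here.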

Additional observations from a re-analysis of the deposited data

How the results depend on the processing

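Runx1 kept its direction and its call at the locus under all 21 alternatives, with log2 fold changes of 0.86 to 1.33 and limma adjusted p of 6.19e-09 to 0.0457, the highest without scaling. Members called higher were 2 with flanks of 10 kb (Cebpa added), 2 with the replicate block (Runx3 added, limma adjusted p = 0.0193) and 1 to 2 when 1 library was left out (Cebpd added without BCAS 1). The labels give no pairing of same-numbered mice. The correlations of same-numbered libraries were -0.16, -0.01, -0.10 and 0.14, which cannot settle whether mice were paired. Over all loci, 536 were higher and 64 lower. The counts of higher loci were 222 without scaling, 348 with median ratio scaling, 281 for peak numbers, 245 with the GC class and 284 to 665 when 1 library was left out (284 without BCAS 3, 324 without BCAS 1). The counts of lower loci were 1, 24, 28, 8 and 25 to 90 under these settings, and 160 with the replicate block. At promoters, 0 to 1 members and 54 to 319 of all windows were called higher (214 with all libraries) and 1 to 9 lower when 1 library was left out, with a log2 fold change of 0.45 to 0.61 for Runx1, and 1 was lower in windows of 2 kb in total width.

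The number of BCAS-only regions was 5 to 6 when 1 library was left out (4 to 5 in Runx1), and that of sham-only regions 0 to 1. With at least 3 libraries of one group against at most 1 of the other it was 9 (7 in Runx1), with 3 for sham, and with lists of equal length 1 sham-only region appeared. The direction of genes near 0 turned without any being called. Cebpb was at 0.15 with −log10 q of 5, 0.066 without scaling, 0.25 for the gene body, 0.11 with flanks of 10 kb, 0.022 with the GC class and -0.090 to 0.090 when 1 library was left out. Cebpg was at 0.022 with equal list lengths, 0.043 without scaling, 0.40 with flanks of 10 kb, 0.039 with the peak number as a covariate and -0.094 to 0.049 when 1 library was left out, at the locus and the promoter alike. Cebpe was at -0.0067 with the GC class and -0.0003 to 0.18 when 1 library was left out (-0.0004 to 0.18 at promoters). At promoters Runx2 was at 0.047 in the 2 kb window and Cbfb at -0.063 to 0.10 when 1 library was left out. The difference in peaks per 100000 was -0.046 to 0.22 for Cebpe when 1 library was left out and 0 for Cebpg with equal list lengths. The causes were not tested, and the depth behind single peaks, which the lists do not hold, limits all presence calls.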
